A study of Mus musculus with 4 samples.

Results

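The 10 genes described here encode 2 of the nitric oxide synthases and proteins that bind, activate, restrain or protect the endothelial enzyme. They were chosen by symbol: the synthases Nos3 and Nos2, the caveolins Cav1 and Cav2, the interactors Nosip, Nostrin, Hsp90aa1 and Akt1, and the hydrolases Ddah1 and Ddah2. All 10 were measured, out of 18193 genes in all, by 23 probe sets that name 1 of them alone. A probe set is the group of array probes that together report 1 transcript region. Where a gene had several, the one with the highest mean over the arrays stood for it.

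The samples were mouse cells that the submitters' titles call endothelial, grown from induced pluripotent stem cells (adult cells returned to a state like that of the early embryo). Under cell type, however, the labels give only iPSC, and the word endothelial is used below as in the titles. There were 4 arrays: 2 from healthy control mice and 2 from mice with diet-induced obesity (DIO), all aged 24 weeks. The cells were kept in an endothelial medium and detached with trypsin before RNA was taken. Each array came from another mouse and carries its group and mouse number below, as in control 1 or DIO 2. Strain, diet, sex, the number of stem cell lines per mouse and any sort for endothelial cells are not stated in the labels. The p-values therefore measure only the spread between these samples, part of which may be technical.

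Nitric oxide is a short-lived gas that endothelial cells make from arginine. Nos3, the endothelial synthase (eNOS), makes it in response to flow and to signals such as insulin, and it relaxes the smooth muscle of the vessel wall. Nos2, the inducible synthase (iNOS), is switched on by inflammatory signals, best known in macrophages. Caveolin-1 holds eNOS inactive in flask-shaped membrane pits called caveolae, while the chaperone HSP90 and the kinase AKT1 promote its activity. Asymmetric dimethylarginine (ADMA) inhibits the synthases, and the DDAH enzymes break it down.

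The array values are log2 expression levels, so a difference of 1 is a doubling of signal. A level includes how well each probe set binds, so levels are compared between arrays within a probe set. In the GRCm38.p6 assembly, Nos3 lies on chromosome 5 from 24364816 to 24384474 and Nos2 on chromosome 11 from 78920787 to 78960226. Cav2 (chromosome 6, 17281185 to 17289130) and Cav1 (17306335 to 17341328) are neighbours with 17204 bases between them. Nosip lies on chromosome 7 from 45062417 to 45078503, and Nostrin on chromosome 2 from 69135800 to 69189330. Hsp90aa1 (110691036 to 110696395) and Akt1 (112653821 to 112674884) are both on chromosome 12. Ddah1 lies on chromosome 3 from 145758692 to 145894277, and Ddah2 on chromosome 17 from 35059035 to 35062099.

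The arrays differed in markers of other cell types, and control 2 stood apart. Its levels over all genes correlated with those of control 1 at r = 0.963, while DIO 1 and DIO 2 correlated at 0.994 (across genes, which are not independent replicates). All 10 measured markers of epidermal and squamous cells were highest in control 2, where they averaged 11.67, against 6.97 in control 1, 7.91 in DIO 1 and 8.74 in DIO 2. All 10 pluripotency markers were lower in control 2 than in control 1 and lower in DIO 2 than in DIO 1. Markers of simple epithelium, such as Krt8 and Epcam, averaged 12.12 in control 1, 12.20 in control 2, 12.23 in DIO 1 and 12.27 in DIO 2. Among endothelial markers, Tie1 was between 3.44 and 3.73, Emcn between 3.47 and 3.88, and Erg between 4.53 and 4.66. Brighter ones were Cdh5, the junction cadherin of endothelium, between 8.37 and 9.34, and Esam between 8.66 and 9.11. Egfl7 was between 8.27 and 8.98, Flt1 between 6.98 and 7.65, and Eng between 6.83 and 7.45. Of the 16 endothelial markers, 11 had a mean below 7.09, the median of the means of all genes. No detection calls were used, and levels of different probe sets cannot be ranked, so these values neither settle the cell type nor give a share of endothelial cells. In a mixed sample, fewer cells of a type and less RNA per cell cannot be told apart.

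None of the 10 genes passed the test between the groups, limma's moderated test with Benjamini-Hochberg adjustment over all genes and a threshold of 0.05. The share called among all genes was 0%, with 1198 genes at an unadjusted p below that value (6.58% of those tested, 594 higher and 604 lower in DIO). That split was 768 higher and 472 lower after quantile normalization, and 216 higher and 391 lower among the genes left when the dimmest 40% were dropped. Among the 10 genes, 0 reached an unadjusted p below 0.05. The DIO mean was higher for 4 of them and lower for 6, with a median difference of −0.04, against 0.02 over all genes. The groups did not overlap for 2 of the 10 genes, against 38.4% of all genes. In Hsp90aa1 the DIO arrays were the higher ones, as in 21.4% of all genes, and in Nostrin the lower ones, as in 17.0%. With 2 arrays against 2, an exact 2-sided permutation test of a single gene cannot give a p under 0.333.

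**Figure D1:**
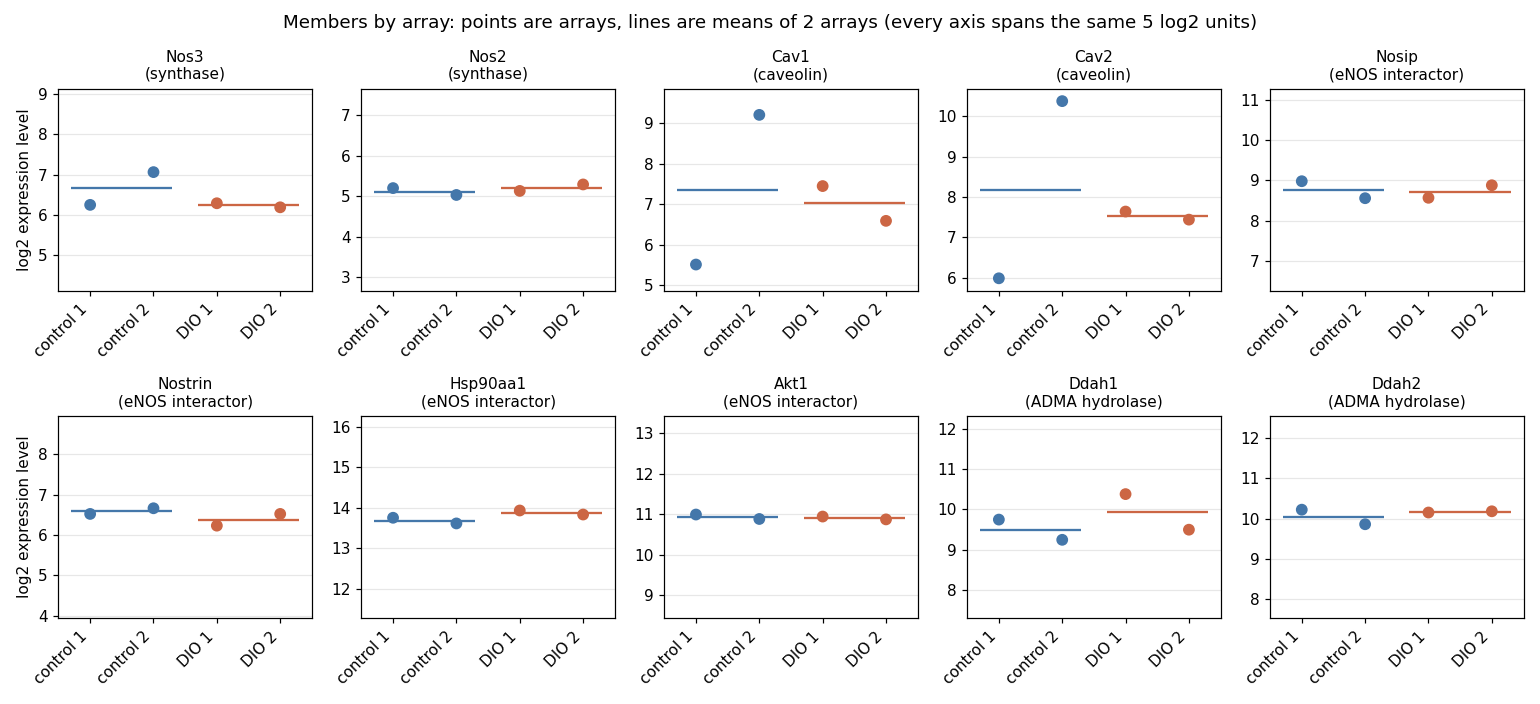
Log2 expression level of each of the 10 genes on each array (points; control blue, DIO orange), with the mean of each group of 2 arrays as a line; every vertical axis spans the same width but starts at its own level. Cav1 and Cav2 spread widely between the controls, and Akt1 and Nos2 have the smallest ranges, 0.11 and 0.26.

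**Figure D2:**
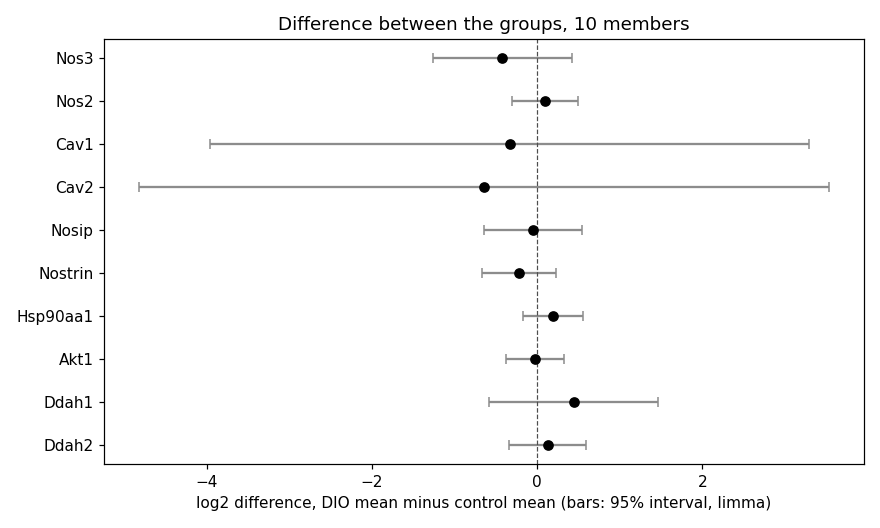
Difference between the DIO mean and the control mean of each gene on the log2 scale (points), with its 95% confidence interval from limma (bars). All 10 intervals include 0, and those of Cav1 and Cav2 are the widest.

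Nos3 was higher in control 2 than on the other arrays, and the 2 groups overlapped. Its level was 6.25 in control 1, 7.06 in control 2, 6.29 in DIO 1 and 6.19 in DIO 2. Both DIO arrays thus lay beside control 1, within 0.1 log2 units of it. The difference was −0.42 ± 0.31 (SE, n = 2 per group, limma, adjusted p = 0.788), and its 95% interval ran from −1.27 to 0.42. As a ratio of DIO to control this is 0.747, with an interval from 0.416 to 1.34. Without control 2 the difference was −0.01, and without control 1 it was −0.83, each with 1 control left. The endothelial markers averaged 6.14 in control 1, 6.35 in control 2, 6.09 in DIO 1 and 5.97 in DIO 2. Of the 16, 6 were highest in control 2, 4 were lowest there, and 6 were lower there than in control 1. Among all genes, 21% were highest in control 2 and 41% lowest there. Sox17 and Tek differed most between the controls. Sox17 was at 5.86, 8.22, 5.98 and 5.63 in the same order of arrays, and Tek, the angiopoietin receptor, at 5.05, 6.69, 4.87 and 4.21. Kdr, which binds the growth factor VEGF, was at 6.33, 6.83, 6.27 and 6.32. Pecam1, a junction adhesion molecule, was at 7.34, 6.83, 7.20 and 6.05, so it was highest in control 1. The part of endothelial or other cell content in the Nos3 values was not tested.

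Nos2 was nearly level across the arrays. It stood at 5.20 in control 1, 5.03 in control 2, 5.13 in DIO 1 and 5.29 in DIO 2, so the groups overlapped. The difference was 0.10 ± 0.14 (limma, adjusted p = 0.891), and the 95% interval of the ratio ran from 0.813 to 1.41. Its whole range over the arrays was 0.26, and 22.8% of genes had a smaller one. The probe set was dim, with 31.4% of genes at a lower mean. No detection calls were used, so a level profile does not show that Nos2 was expressed. Macrophage markers were read beside it, and the 9 of them averaged 6.07 in control 1, 6.15 in control 2, 6.05 in DIO 1 and 6.01 in DIO 2. Ptprc, which marks white blood cells, was between 3.84 and 4.11 and Adgre1, which encodes F4/80, between 4.47 and 5.01. Csf1r, the receptor for macrophage growth factor, had control values of 11.47 and 11.66 and DIO values of 11.11 and 11.03. Fcgr3 had control values of 5.43 and 6.26 and DIO values of 5.09 and 4.78. For Cd68, between 10.30 and 11.09, the groups overlapped. Of the 9 markers, 2 had both DIO arrays above both controls and 2 below, against 21.4% and 17.0% of all genes. Without control 2 the Nos2 difference was 0.01, and without DIO 2 it was 0.01, against 0.18 without control 1 and 0.18 without DIO 1.

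The third synthase, Nos1 of neurons and muscle, belongs to the wider pathway list. Its control values were 9.28 and 8.37 and its DIO values 8.76 and 8.89, so both DIO arrays lay between the controls. The difference was 0.003 ± 0.34, which was −0.45 without control 2 and 0.46 without control 1.

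The caveolins showed the widest spread of the 10 genes, and it lay between the 2 control arrays. Cav1, the structural protein of caveolae and an inhibitor of eNOS, was at 5.51 in control 1, 9.21 in control 2, 7.45 in DIO 1 and 6.59 in DIO 2. Cav2, which assembles with caveolin-1, was at 5.99 in control 1, 10.37 in control 2, 7.64 in DIO 1 and 7.44 in DIO 2. For both genes the order from low to high was control 1, DIO 2, DIO 1 and control 2, an order that 2.86% of all genes had. The DIO arrays therefore lay between the controls.

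Between control 1 and control 2 the Cav1 signal differed 13.0-fold and the Cav2 signal 20.9-fold. Only 164 of the 18193 genes had a larger range over the arrays than Cav1, and 108 a larger one than Cav2. The differences between the groups were small beside this, at −0.33 ± 1.32 for Cav1 (limma, adjusted p = 0.965) and −0.64 ± 1.53 for Cav2 (adjusted p = 0.938). The 95% interval of the Cav1 ratio ran from 0.0644 to 9.78 and that of Cav2 from 0.0354 to 11.6, so these arrays set hardly any bound on a difference.

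The direction depended on which control was used. Without control 2, Cav1 was 1.52 and Cav2 1.55 higher in DIO. Without control 1, Cav1 was at −2.18 and Cav2 at −2.83. With 1 control left, the spread within a group came from the DIO arrays alone, so these values only place that control beside the DIO arrays. Without DIO 2, Cav1 was at 0.10.

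The second Cav2 probe set did not follow the first. It was dimmer, with control values of 5.12 and 5.30 and DIO values of 5.43 and 5.40, a range of 0.31, with both DIO arrays above both controls. Its difference was 0.21 ± 0.13 (limma per probe set, adjusted p = 0.652). Cav1 was named alone by 1 probe set.

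Some lists of other cell type markers were, like the caveolins, highest in control 2, and others were not. Epidermal markers, averaged above for each array, were highest in control 2 in 10 of 10 cases and lowest in control 1 in 7 of 10. Krt5, a keratin of basal epidermal cells, was at 6.73, 11.89, 7.55 and 8.34 in control 1, control 2, DIO 1 and DIO 2. Trp63, a transcription factor of those cells, was at 4.15, 8.37, 4.55 and 4.84. Of 8 fibroblast markers, 6 were highest in control 2, and their averages were 6.35, 7.55, 6.37 and 6.68 in the same order. Smooth muscle markers, at 7.11, 6.73, 7.29 and 7.31, were lowest in control 2 in 5 of 7 cases and pluripotency markers in 9 of 10. Among all genes, 21% were highest in control 2, 41% were lowest there and 21.4% were lowest in control 1. Averages of simple epithelial and neuronal markers ranged little, the latter at 6.06, 5.99, 5.97 and 5.94. Single neuronal markers moved more, in opposite directions, and 4 of the 6 were lower in control 2 than in control 1. Map2 was at 3.46, 6.07, 3.63 and 4.10, and Stmn2 at 8.90, 7.46, 8.77 and 7.67. Unlike the caveolins, the epidermal average was higher in DIO 2 than in DIO 1. The part of these cell types in the caveolin values was not tested.

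The windows before the transcription starts of Cav2 and Cav1 are shown because the probe sets standing for these neighbours had the same array order. Each holds the 250 bases before a RefSeq start site in GRCm38.p6, on the plus strand, at chr6:17280935-17281184 for Cav2 and chr6:17306085-17306334 for the upstream start of Cav1. Capitals mark matches, on either strand, to 4 motifs: the GC box GGGCGG, the AP-1 motif TGANTCA, the CCAAT box CCAAT and the TATA motif TATAAA.
Cav2: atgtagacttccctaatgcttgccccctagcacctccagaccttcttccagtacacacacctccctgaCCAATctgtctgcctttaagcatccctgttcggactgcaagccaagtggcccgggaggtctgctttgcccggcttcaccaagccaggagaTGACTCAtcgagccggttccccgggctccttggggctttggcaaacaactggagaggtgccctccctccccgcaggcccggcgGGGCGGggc
Cav1: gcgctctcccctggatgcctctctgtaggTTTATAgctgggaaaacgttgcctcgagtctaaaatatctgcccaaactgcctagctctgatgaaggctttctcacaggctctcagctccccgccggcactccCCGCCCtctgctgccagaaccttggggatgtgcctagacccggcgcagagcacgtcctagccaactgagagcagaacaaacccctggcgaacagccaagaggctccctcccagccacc
The GC box was present once in each window, 9 bases before the start of Cav2 and, on the other strand, 118 bases before that of Cav1. It occurred in 32.7% of 32851 such windows over all genes. The AP-1 motif was found in the Cav2 window alone (6.75% of all windows), as was the CCAAT box (33.8%), and the TATA motif in the Cav1 window alone (12.4%), far upstream of the start. No 2 of these matches overlap. The share of G and C in these windows was 62.0% for Cav2 and 59.6% for Cav1, against a median of 52.4%. The window of the downstream start of Cav1, at chr6:17307390-17307639 and not shown, held no match to any of the 4 motifs. The motifs were chosen with the windows in view, and a match is a description of letters, not of binding.

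The other proteins of caveolae had smaller ranges than Cav1 and Cav2. These coat genes, picked out of the pathway list after their values were seen, are Cavin1, Cavin2 and Cavin3, with Cav3, the caveolin of muscle. Cavin1, needed for caveolae to form, had control values of 8.46 and 9.07 and DIO values of 8.66 and 8.32. Cavin2 had control values of 4.60 and 6.16 and DIO values of 4.04 and 4.85, which differ by −0.93 ± 0.62. The difference was −0.16 without control 2 and −1.71 without control 1. Both were thus highest in control 2, like Cav1 and Cav2. Cavin3 ranged over 0.35 and Cav3 over 0.40, and both were lowest in control 2.

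**Figure D3:**
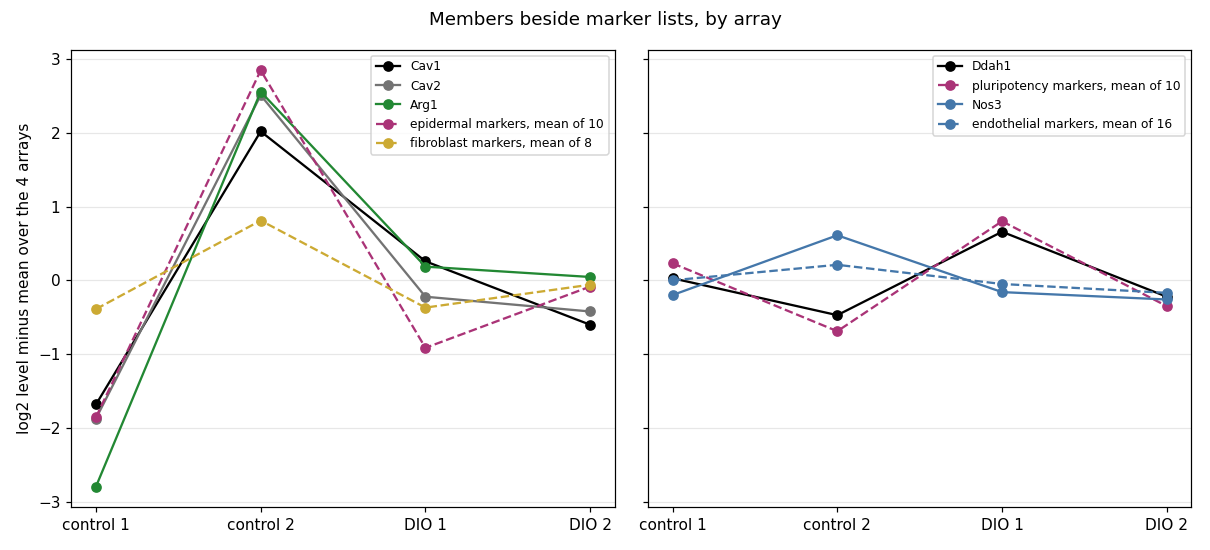
Log2 level of each gene or marker list minus its own mean over the 4 arrays; lines only join the points of a gene (solid) or of a list average (dashed). Cav1, Cav2 and Arg1 are lowest in control 1 and highest in control 2, as is the epidermal average, and Ddah1 has the array order of the pluripotency average.

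Of the eNOS interactors, Hsp90aa1 had both DIO arrays above both controls. Hsp90aa1, the inducible cytosolic HSP90 chaperone that helps activate eNOS, was at 13.75 in control 1, 13.61 in control 2, 13.93 in DIO 1 and 13.83 in DIO 2. The difference was 0.20 ± 0.13 (limma, adjusted p = 0.778), and the 95% interval of the ratio was 0.889 to 1.48. All 5 of its probe sets had a higher DIO mean, from 0.14 to 0.28, and for 3 of them the groups did not overlap, as for 22.3% of all probe sets in that direction. The remaining probe sets were dim, with control means of 5.07 and 4.30, and their groups overlapped. All 5 probe sets share the gene's RNA and the same arrays, so they are not separate samples. The difference was 0.12 without control 2 and between 0.15 and 0.27 without any other array.

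Akt1, the kinase that phosphorylates eNOS, was among the steadiest genes on these arrays. It was at 10.99 in control 1, 10.88 in control 2, 10.94 in DIO 1 and 10.87 in DIO 2, a range of 0.11, and 3.7% of genes had a smaller one. The difference was −0.03 ± 0.13 (limma, adjusted p = 0.97). Its 95% interval of the ratio, 0.771 to 1.25, was the narrowest among the 10 genes. The sign is not settled: it turned to 0.03 without control 1, 0.005 without DIO 2 and 0.001 after centring each array on its median. Of the 4 probe sets, 3 had a lower DIO mean and the dimmest a higher one, at 0.11.

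Nostrin, an adaptor that moves eNOS away from the plasma membrane, had both DIO arrays below both controls by a narrow margin. It was at 6.52 in control 1, 6.66 in control 2, 6.23 in DIO 1 and 6.52 in DIO 2, so that DIO 2 and control 1 nearly coincided. The difference was −0.22 ± 0.16 (limma, adjusted p = 0.791), and the 95% interval of the ratio ran from 0.631 to 1.17. After quantile normalization, and after centring, the groups overlapped. Without DIO 1 the difference was −0.07, and without DIO 2 it was −0.36.

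Nosip, a ubiquitin ligase that binds eNOS and affects where it lies in the cell, did not separate the groups. It was at 8.98 in control 1, 8.56 in control 2, 8.57 in DIO 1 and 8.88 in DIO 2. The difference was −0.05 ± 0.22 (limma, adjusted p = 0.969), with a 95% interval from −0.64 to 0.54. It turned to 0.16 without control 1, 0.11 without DIO 1 and 0.02 after quantile normalization. Its second probe set, with a difference of −0.01 ± 0.26, put DIO 2 below DIO 1 where the first put it above.

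**Figure D4:**
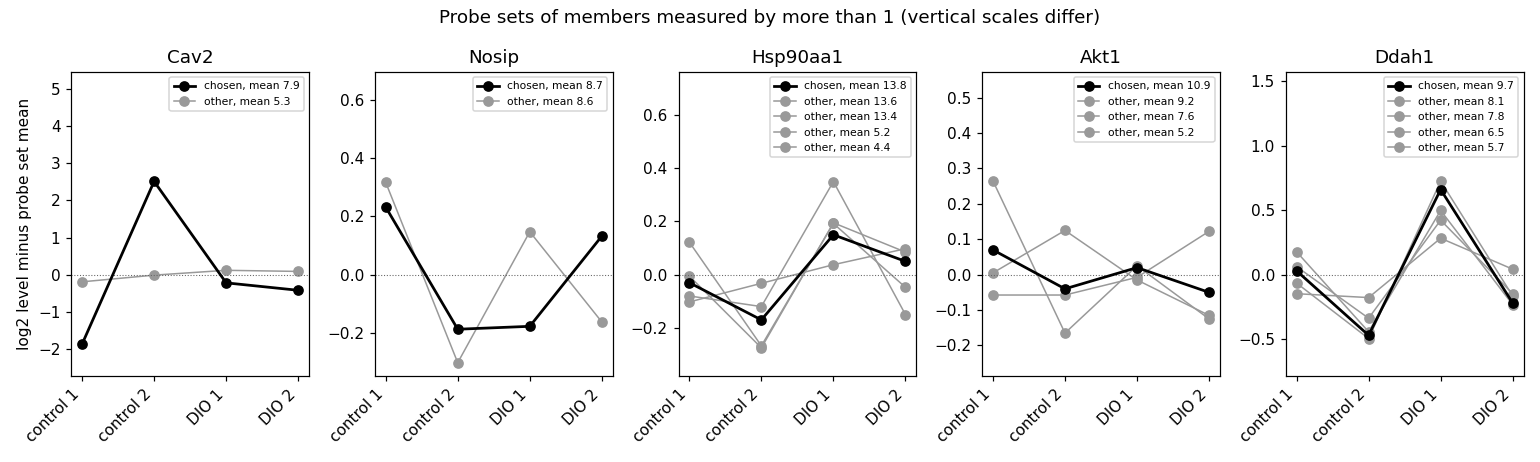
Log2 level of each probe set minus its own mean over the 4 arrays, for the 5 genes with more than 1 probe set; black is the probe set that stands for the gene, grey the others, and lines only join the points of a probe set. The 5 probe sets of Ddah1 run together, while those of Cav2, Nosip and Akt1 do not.

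Ddah1, a hydrolase of ADMA, varied more within the groups than between them. Its level was 9.75 in control 1, 9.25 in control 2, 10.38 in DIO 1 and 9.50 in DIO 2. DIO 1 was highest, while DIO 2 lay between the controls. The difference was 0.44 ± 0.37 (limma, adjusted p = 0.811), and the 95% interval of the ratio ran from 0.67 to 2.76. It was 0.19 without control 2 and 0.89 without DIO 2, and without DIO 1 it was −0.0005.

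All 5 probe sets of Ddah1 had a higher DIO mean, from 0.26 to 0.56. In all 5, control 2 was below control 1 and DIO 2 below DIO 1. In 4 of them the order from low to high was control 2, DIO 2, control 1 and DIO 1, an order that 6.16% of all genes had. In the remaining one, the dimmest, both DIO arrays were above both controls: the lower of them, DIO 2, was at 5.76 and the higher control at 5.57. Its difference was 0.32 ± 0.14 (limma per probe set, adjusted p = 0.558). The pluripotency markers averaged 10.13 in control 1, 9.21 in control 2, 10.70 in DIO 1 and 9.55 in DIO 2, which is the same order of arrays. Of these 10 markers, 9 were lowest in control 2, as were 41% of all genes. The stem cell factor Pou5f1 was at 11.16, 9.96, 11.79 and 10.33. The part of undifferentiated cells in the Ddah1 values was not tested.

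Ddah2, the second ADMA hydrolase, was lower in control 2 than on the other arrays. It was at 10.22 in control 1, 9.86 in control 2, 10.15 in DIO 1 and 10.18 in DIO 2. The difference was 0.13 ± 0.17 (limma, adjusted p = 0.884), and the 95% interval of the ratio was 0.788 to 1.51. It turned to −0.05 without control 2 and was 0.31 without control 1. Ddah1 and Ddah2 thus shared their lowest array but not their highest. Control 2 was the lowest array for 41% of all genes. Prmt1, which methylates arginine in the proteins that ADMA is released from, had control values of 11.85 and 11.59 and DIO values of 11.98 and 11.89. It is named for its place in that route, not by the naming rule.

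The 3 genes nearest to a member over the 4 arrays, by the Euclidean distance between profiles centred on their own mean, were found for Nos3, Nos2 and Cav1. For Nos3 they were the signalling suppressor Socs5, at a distance of 0.02, then Cpxm2 and the angiotensin receptor Agtr2. All 3 had their highest level in control 2, which follows from being chosen for nearness to Nos3. For Nos2 they were Cbln4, the Wnt receptor Fzd9 and Gm2629, with ranges from 0.255 to 0.271. For Cav1 they were the proteoglycan Srgn at 0.52, the platelet chemokine Ppbp at 0.52 and the surface protein Msln at 0.59. Srgn was at 8.47, 12.44, 10.03 and 9.25 in control 1, control 2, DIO 1 and DIO 2. Cav2 followed at 0.74, with 7 of 18192 genes nearer to Cav1. With 4 arrays a profile holds few values, and how often 2 genes lie this close was not counted.

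Of 45 further genes of nitric oxide supply and signalling, 37 were measured and 0 passed in either direction (limma, adjusted, 0% of all genes). At an unadjusted p below 0.05 there were 2, both lower in DIO, which is 5.41% of the list against 6.58% of all genes. The DIO mean was higher for 18 and lower for 19, with a median difference of −0.01, against 0.02 over all genes. The DIO arrays were both above the controls for 6 of the 37 and both below for 7, shares near the 21.4% and 17.0% of all genes.

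The 2 genes with an unadjusted p below 0.05 were Pdpk1 and Gch1. Pdpk1, the kinase that activates AKT, had control values of 10.95 and 10.95 and DIO values of 10.41 and 10.24, which differ by −0.63 ± 0.13 (limma, adjusted p = 0.728). It was −0.63 without control 1 and −0.63 without control 2. Gch1, the first enzyme in making the synthase cofactor tetrahydrobiopterin, had control values of 10.87 and 10.55 and DIO values of 10.11 and 10.28, which differ by −0.52 ± 0.17 (adjusted p = 0.728). It was −0.36 without control 1.

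Of the other genes with the largest differences among those whose groups did not overlap, 3 were higher and 3 lower, and none passed. Higher in both DIO arrays were Prkaa1, a catalytic subunit of the energy sensor AMPK that can phosphorylate eNOS, at 0.53 ± 0.26, and Vasp, an actin regulator and target of cyclic GMP-dependent kinase, at 0.39 ± 0.20. Adh5, which breaks down nitrosylated glutathione, was also in this group at 0.32 ± 0.14. Lower in both were Nos1ap, an adaptor of the neuronal synthase, at −0.27 ± 0.15, and Ppp2ca, a phosphatase subunit, at −0.27 ± 0.12. Zdhhc21, which attaches palmitate to eNOS, was at −0.27 ± 0.21. The bright genes Cyb5r3, a reductase that affects nitric oxide diffusion, and Stub1, a ubiquitin ligase that works with HSP90, were at −0.03 ± 0.12 and −0.11 ± 0.13.

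Arg1, the arginase that competes with the synthases for arginine, had the widest range of the 37 genes and is named after its values were seen. It was at 6.95 in control 1, 12.30 in control 2, 9.93 in DIO 1 and 9.79 in DIO 2, the same order of arrays as Cav1 and Cav2. The difference was 0.24 ± 1.86 (limma, adjusted p = 0.984). It was −2.44 without control 1 and 2.92 without control 2, each with 1 control left. The epidermal markers given above were likewise highest in control 2, and their part in the Arg1 values was not tested.

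**Figure D5:**
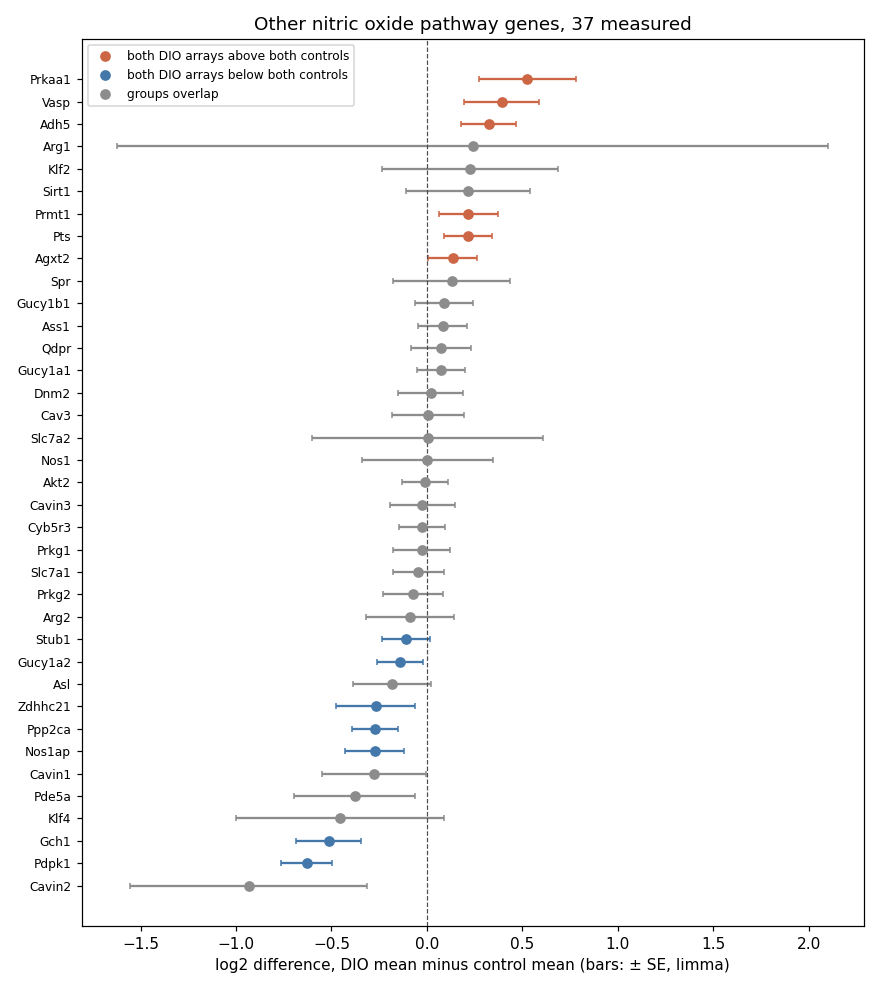
Difference between the DIO mean and the control mean on the log2 scale for the 37 measured genes of the wider nitric oxide pathway (points), with the standard error from limma (bars), coloured by whether both DIO arrays lay above or below both controls. Arg1 has the widest bar, and Pdpk1 and Gch1 lie lowest among genes whose groups do not overlap.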

How the data were processed

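RNA was measured on Affymetrix mouse expression arrays, 1 per mouse. The values are log2 expression levels per probe set in 1 table that the authors deposited; the background correction, normalization and summary method are stated in no source used here. The log2 scale was read from the values, which ran from 2.59 to 14.56, with array medians between 5.61 and 5.65. Of 45101 probe sets, 64 manufacturer controls were left out, 34945 had 1 gene symbol in the platform annotation, 932 had several and 9160 were not listed. Symbols were checked by gene number against RefSeq (34741 matched), the source of coordinates and of promoter windows, which were held for 7 of the 10 genes. No filter on dim genes was used.

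The groups were compared with limma 3.58.1 (R 4.3.3; a linear model per gene with moderated variances, 2-sided, Benjamini-Hochberg over all genes, threshold 0.05), and the script was tested on simulated data. Only 2 arrays per group limit the precision: the median half-width of the 95% interval over all genes was 0.456 log2 units. The genes and lists were chosen with earlier results of these data known. The text names all 10 genes, the 8 pathway genes with the largest difference and groups that do not overlap, the 4 brightest pathway genes and the 3 nearest profiles; others were named after their values were seen. Averages of the marker lists differed, DIO minus control, by −0.22 for endothelium, 0.46 for pluripotency, −1.00 for epidermis and −0.43 for fibroblasts, with no test. They differed by 0.38 for smooth muscle, −0.50 for adipocytes, −0.08 for macrophages and 0.09 for simple epithelium. The rest were 0.06 for skeletal and heart muscle and −0.07 for neurons. The adipocyte average held only 3 measured markers. Fabp4 differed by −1.84, with 4.75 in control 1 and 10.30 in control 2. Lep differed by 0.33, and Adipoq had a mean of 3.64 in both groups. Alternatives were quantile normalization, centring on array medians, dropping the dimmest 40% of genes, averaging probe sets, a trended and robust eBayes, leaving out each array and a block for the mouse number.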

Additional observations from a re-analysis of the deposited data

How the results depend on the processing

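Over 10 alternatives, the 10 single-gene differences gave 99 values, of which 87 kept their direction and side of the threshold, 11 turned sign and 1 came to pass. Nos2 was among the dimmest 40% of genes and had no value when these were dropped. With all arrays, 0 genes passed in limma under any alternative. Leaving out 1 array gave 0 to 483 genes past the adjusted threshold and 171 to 3689 at an unadjusted p below 0.05, with the 483 and the 3689 both without control 1, and dropping the dimmest genes gave 607 from fewer genes tested. Leaving out 1 array also gave 0 to 1 of the 10 genes past the threshold (Cav2), 0 to 1 of the pathway genes (Arg1), 2 to 5 of the 10 genes with DIO above control and 1 to 4 below. Without control 1 these were 5 above and 4 below, where 50.1% and 29.6% of all genes were, and without control 2, 3 and 4, where 33.5% and 42.3% were. Without DIO 1 they were 2 above and 3 below, where 32.8% and 29.2% of all genes were. Without DIO 2 they were 2 above and 1 below, where 33.6% and 25.4% were. With 1 array left out, the lone array of its group was assumed to vary like the other group. Passing the threshold there measures how far that array lay from the other group, not the spread within its own. The median difference over the 10 genes was −0.030 to 0.093 and that over the pathway genes −0.057 to 0.055. After quantile normalization and after centring, 0 of the 10 genes had both DIO arrays below both controls. Leaving out 1 array gave −2.18 to 1.52 for Cav1, −2.83 to 1.55 for Cav2, −0.255 to 0.159 for Nosip, −0.082 to 0.027 for Akt1, −0.0005 to 0.89 for Ddah1 and −0.052 to 0.305 for Ddah2. Nosip turned to 0.022 after quantile normalization and Akt1 to 0.001 after centring. Other probe sets had the opposite sign for Cav2 at 0.21 and Akt1 at 0.11. The cause of these changes was not tested.

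The mouse numbers 1 and 2 occur in both groups but nothing says that they pair the mice. Deviations of same-numbered arrays correlated at 0.333 over genes, and for 4 of the 10 genes the numbers differed in the same direction in both groups. With the replicate block, 0 genes passed, 982 had an unadjusted p below 0.05 and 0 of the 10 genes passed, the smallest adjusted p among them being 0.727.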
